A study of Mus musculus with 28 samples.

Results

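The cell cycle genes described here are those of the D cyclins, Ccnd1, Ccnd2 and Ccnd3, and of the kinases they activate, Cdk4 and Cdk6. They were chosen by gene symbol, and they are 5 of the 24079 rows of the count table and 5 of the 15099 genes that passed the filter on low counts and were tested. D cyclins bind CDK4 or CDK6 in early G1 and direct the kinase to the retinoblastoma protein and its relatives, whose phosphorylation frees E2F factors to switch on the genes of S phase. Growth factor and RAS signalling raise D cyclin transcription, and the proteins turn over quickly. Cyclin D1 is the D cyclin best known in fibroblasts, and in mouse cells the 3 D cyclins can in part stand in for one another.

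The cells were mouse embryonic fibroblasts of the strain C57BL/6x129Sv, transformed with RAS and DNP53, and every group shares this background. Clones 12 and 14 carry cyclin D1 with a C-terminal tag (Ctag), and clones 18 and 25 carry untagged cyclin D1. From either tagged clone came 8 libraries, 1 per treatment: siRNA against the FLAG tag, siRNA against the HA tag, 3 siRNAs against cyclin D1 (Qiagen, Published Nature and Life Technologies, called Qiagen, Nature and Life below), the control siRNA SCR, leptomycin B at 20 ng/mL, and no treatment. Leptomycin B blocks the nuclear exporter XPO1. Each untagged clone gave 1 library with FLAG, HA and SCR siRNA, and 2 lines of clone 18, carrying FLAG-mCherry-HA/PURO or mCherry/PURO, gave 3 libraries each (2 with HA and 1 with FLAG siRNA). Cells were exposed overnight and harvested the next morning. Each group of a tagged or untagged comparison thus holds 2 libraries, 1 from each of 2 clones, and no label says that libraries of 1 clone came from separate cultures, so p-values measure the spread between these libraries. All comparisons with SCR in tagged clones share the same 2 SCR libraries, and those with untreated cells share the same 2 untreated libraries.

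Library totals ran between 26558256 and 81512769 counts, with 14132 to 16311 genes detected. SCR clone 12 was both the deepest library and the one with the fewest genes detected. Above 2% of all counts belonged to Rn45s, a ribosomal RNA precursor, in 4 libraries (Life and Nature of clone 14, HA of clone 12, and the second HA library of the mCherry line). Of 10 fibroblast markers 9 had a median above 1 CPM (counts scaled to library size with TMM factors), and their summed level was 4814 to 11717 CPM. Markers of macrophages summed to 2.41 to 6.82 CPM over 4 of 5 genes matched, of endothelium to 0 to 1.95, of neural cells to 2.49 to 21.4, and of muscle to 0 to 13.1 CPM. Epithelial markers were not near 0, with a sum of 122 to 3696 CPM that differed between clones, and these values are given with the clone comparison.

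The 3 D cyclins are close relatives, so the stretches in which their coding sequences match are shown first, because reads of 100 bases were counted per gene and because siRNAs to Ccnd1 were used. In the annotation of the same build (GENCODE M21, GRCm38, which is mm10), Ccnd1 and Ccnd2 were identical at 67.91% of aligned coding bases, Ccnd1 and Ccnd3 at 63.79%, Ccnd2 and Ccnd3 at 68.5%, and Cdk4 and Cdk6 at 68.44%. The longest run of identical bases was 20, shared by Ccnd1 and Ccnd2 in exon 1 of each. In the lines that follow, capitals in the Ccnd1 line mark that shared run, and capitals in the other 2 lines mark bases identical to Ccnd1.
Ccnd1, chr7:144939527-144939576, minus strand: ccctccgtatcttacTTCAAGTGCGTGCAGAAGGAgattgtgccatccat
Ccnd2, chr6:127150613-127150662, minus strand: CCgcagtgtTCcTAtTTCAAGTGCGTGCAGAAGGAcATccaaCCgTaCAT
Ccnd3, chr17:47593772-47593821, plus strand: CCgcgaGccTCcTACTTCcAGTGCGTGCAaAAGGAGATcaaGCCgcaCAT
Over these 50 bases Ccnd2 matched Ccnd1 at 34 and Ccnd3 at 35.

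The longest run shared by Ccnd1 and Ccnd3 had 17 bases, in exon 5 of Ccnd1 and exon 7 of Ccnd3. It is shown in the same way with its flanks, which cross a splice junction, so that the 47 bases are those of the spliced transcript.
Ccnd1, exons 4 and 5: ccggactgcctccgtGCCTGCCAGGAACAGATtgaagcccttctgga
Ccnd2, exons 4 and 5: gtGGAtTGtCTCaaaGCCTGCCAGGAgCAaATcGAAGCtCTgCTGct
Ccnd3, exons 6 and 7: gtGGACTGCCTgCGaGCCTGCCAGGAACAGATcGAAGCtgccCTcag
Ccnd2 and Ccnd3 held no shared run of 15 bases or more. Cdk4 and Cdk6 shared a run of 20 bases, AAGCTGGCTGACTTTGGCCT, in exon 4 of both (chr10:127064943-127064962 and chr5:3429099-3429118, plus strand). No shared run was as long as a read. The siRNA sequences were not used here, so whether a siRNA matches a stretch shared by 2 of these genes was not tested.

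Per kilobase of exon, Ccnd1 or Cdk4 stood highest and Cdk6 lowest. Over all 28 libraries Ccnd1 (gene 12443, chr7:144929931-144939831) ran between 50.1 and 1469 CPM with a median of 1089, and Ccnd2 (gene 12444, chr6:127125162-127152188) between 45.7 and 1071 with a median of 277. Ccnd3 (gene 12445, chr17:47505051-47599689) ran between 24.3 and 190 CPM with a median of 116. Cdk4 (gene 12567, chr10:127063535-127067288) ran between 342 and 802 CPM with a median of 434, and Cdk6 (gene 12571, chr5:3341004-3531008) between 3.99 and 22.5 with a median of 9.78. Cdk6 is thus the member with the largest counting error, with 109 to 1229 counts per library, against 847 or more for each of the other 4. To set genes beside each other, CPM was divided by the union exon length (4709 bases for Ccnd1, 9409 for Ccnd2, 8775 for Ccnd3, 3249 for Cdk4 and 13989 for Cdk6). In SCR libraries of clones 14 and 12, Ccnd1 then had 273 and 239 CPM per kilobase, Cdk4 133 and 169, Ccnd2 65.0 and 24.8, Ccnd3 14.5 and 9.80, and Cdk6 0.636 and 1.05. This order, Ccnd1, Cdk4, Ccnd2, Ccnd3 and Cdk6, held in 14 of 28 libraries. Cdk4 stood first in 11 libraries, the 10 of tagged clones with a targeting siRNA and leptomycin B clone 12. Cdk6 came last in all 28, at 0.203 to 1.41% of the summed Cdk4 and Cdk6. Neighbours in the order changed places between libraries for every pair except those with Cdk6. In 1 library, untreated clone 14, Ccnd2 stood above Cdk4. The order rests on the lengths used: with the coding transcripts that have a CCDS entry it held in 5 of 28 libraries, Ccnd3 stood above Ccnd2 in 16 in place of 3, and Cdk4 came first in 12, while Cdk6 was last in 28.

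**Figure D1:**
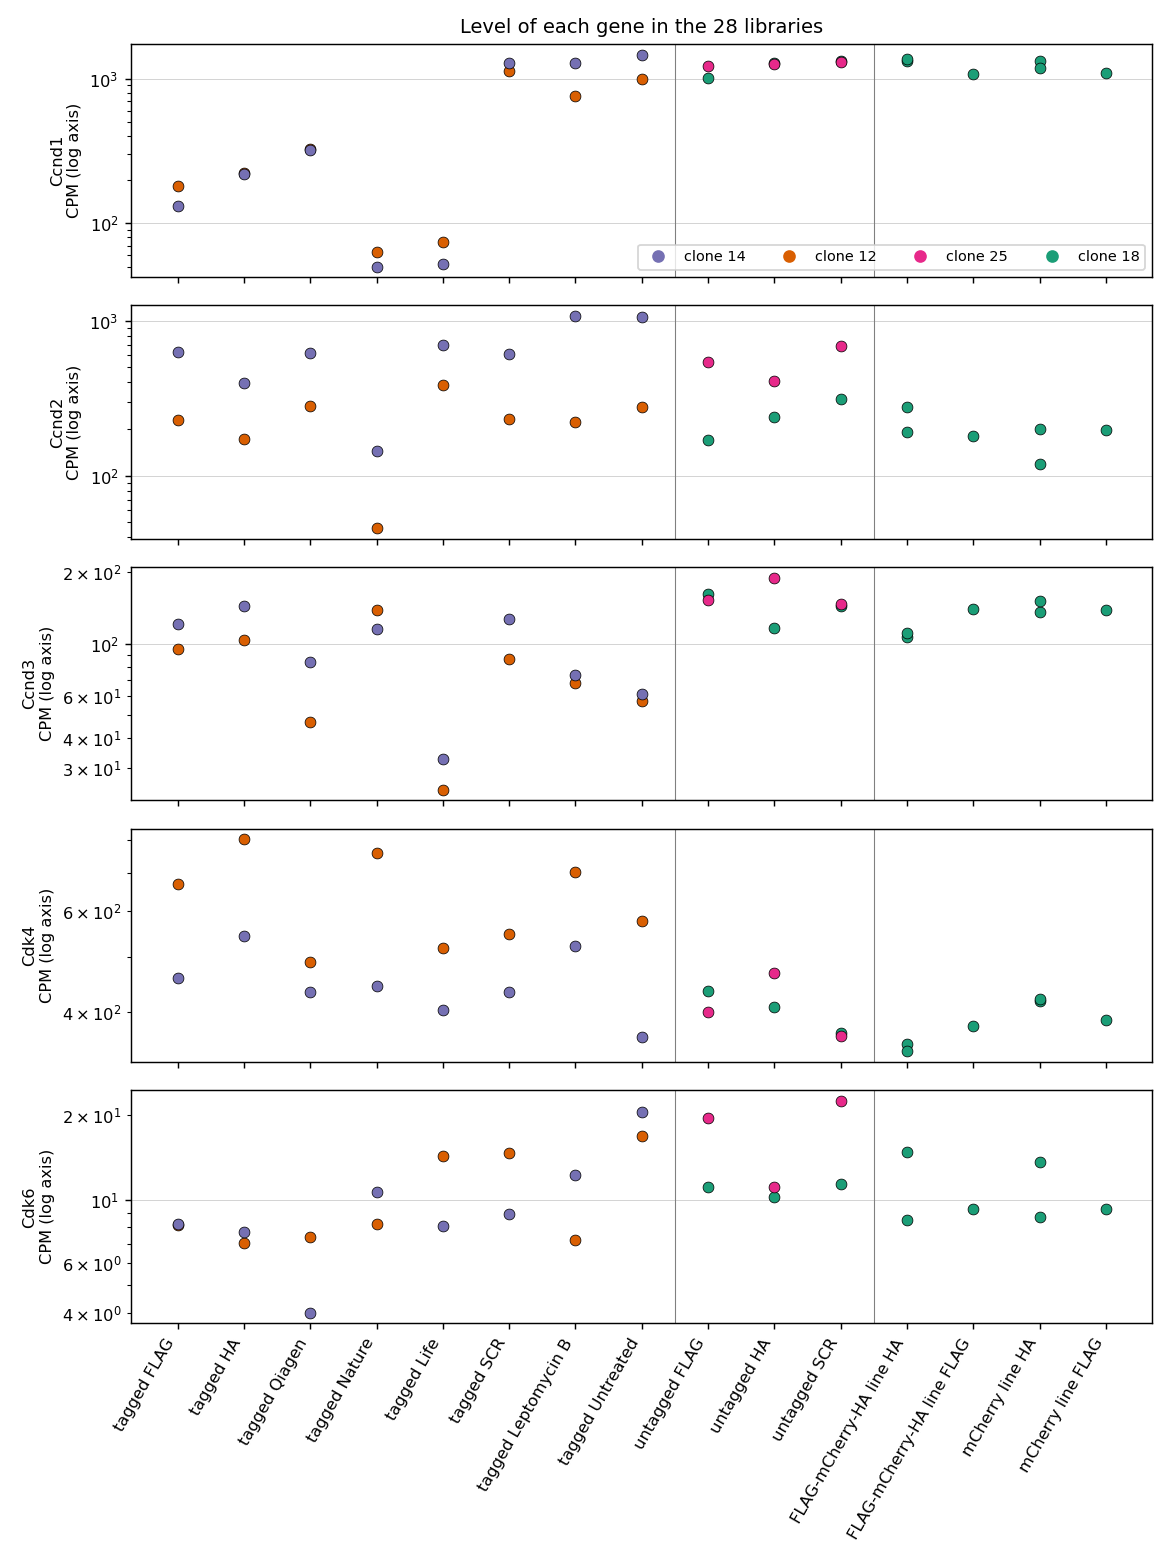
Level of each of the 5 genes in CPM (log axis) in every library, by group along the horizontal axis, with 1 point per library and colours for the clones. Ccnd1 sits between 50.1 and 329 CPM in the 10 tagged libraries with a targeting siRNA and between 760.2 and 1469 CPM in the other 18, and the Ccnd2 points of clones 14 and 25 lie above those of clones 12 and 18 with every treatment.

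Ccnd1, the target, was low with each of the 5 siRNAs aimed at the tag or at cyclin D1. In tagged clones 14 and 12 it had 131 and 181 CPM with FLAG siRNA, 219 and 222 with HA, 323 and 329 with Qiagen, 50.1 and 63.8 with Nature, and 52.5 and 73.7 with Life, against 1287 and 1128 CPM with SCR. No library with a targeting siRNA overlapped SCR, untreated or leptomycin B libraries. In bulk RNA, fewer cells with the transcript and less transcript per cell cannot be told apart. The siRNAs differed in what they left. Nature left 4.73% of the SCR level, Life 5.24%, FLAG 13.0%, HA 18.3% and Qiagen 27.0%. The log2 fold changes from edgeR's quasi-likelihood test were −4.40, −4.25, −2.95, −2.45 and −1.89 in that order (SE 0.23 to 0.26), and the largest adjusted p of the 5 was 6.49e-05. Ccnd1 fell by more in clone 14 than in clone 12 with each of the 5, for example with log2 changes of −3.29 in clone 14 and −2.64 in clone 12 for FLAG siRNA. That difference between the clones was not tested.

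Ccnd2 passed the test against SCR, as a fall, with 1 of the 5 siRNAs. With Nature siRNA it had 145 and 45.7 CPM in clones 14 and 12, against 611 and 234 CPM with SCR, and each clone's value lay below its own SCR value. The log2 fold change was −2.21 (SE 0.28, adjusted p = 5.14e-05, edgeR), or 21.6% of the SCR level. It was −2.08 in clone 14 and −2.35 in clone 12. Without the clone term the adjusted p was 0.611. With the other siRNAs Ccnd2 had 624 and 230.1 CPM (FLAG), 395 and 173 (HA), 617 and 283 (Qiagen), and 699.9 and 382 (Life) in clones 14 and 12. None of these passed the test, and the log2 fold changes were 0.00, −0.52, 0.15 and 0.48 with 95% intervals that all include 0. The Life value was above SCR in clones 14 and 12 (0.20 and 0.71 on the log2 scale), as was that of Qiagen (0.01 and 0.28). The HA value lay below SCR in clones 14 and 12 (−0.63 and −0.43), and FLAG went both ways (0.03 and −0.02). The Life change had a 95% interval of −0.07 to 1.04 and an adjusted p of 0.289 (edgeR).

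Ccnd3 fell with Life siRNA. It had 32.7 and 24.3 CPM with Life in clones 14 and 12, against 127 and 86.0 CPM with SCR. Both Life values lay below every other tagged library. The log2 fold change was −1.90 (SE 0.22, adjusted p = 2.86e-05, edgeR), which is 26.9% of the SCR level, and it was −1.96 and −1.82 in the 2 clones. With Qiagen siRNA Ccnd3 had 84.0 and 46.9 CPM, a log2 fold change of −0.72 that did not pass (95% interval −1.16 to −0.28, adjusted p = 0.0562, edgeR). Without Qiagen clone 14 the value was −1.04 and passed (adjusted p = 0.0304, edgeR), as it did with a stricter filter, DESeq2 or the compared libraries alone. With Nature siRNA Ccnd3 had 115 and 138 CPM, lower than SCR in clone 14 (−0.14) and higher in clone 12 (0.69). With FLAG siRNA it had 121 and 95.04 CPM and with HA 143 and 104, and neither differed from SCR beyond the spread (0.03 and 0.22).

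Neither kinase gene passed the test against SCR with any of the 5 siRNAs. Cdk4 had 459.6 and 669.6 CPM with FLAG siRNA in clones 14 and 12, 542 and 802 with HA, 434 and 489 with Qiagen, 444 and 757 with Nature, and 404 and 518 with Life, against 433 and 548 CPM with SCR. The HA values were the highest Cdk4 level of each clone. The log2 fold change with HA was 0.43 (95% interval 0.16 to 0.71, adjusted p = 0.0746, edgeR), and with the other 4 it lay between −0.09 and 0.26. Cdk6 had 8.23 and 8.18 CPM with FLAG, 7.72 and 7.03 with HA, 3.99 and 7.43 with Qiagen, 10.7 and 8.20 with Nature, and 8.11 and 14.3 with Life, against 8.89 and 14.7 CPM with SCR. The SCR value of clone 14 was 0.606 times that of clone 12, and all 5 log2 fold changes were negative without passing, the largest being −1.04 with Qiagen (95% interval −1.82 to −0.26, adjusted p = 0.124, edgeR).

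These calls are read against all genes. The members called against SCR were 1 of 5 with FLAG siRNA, where 2.17% of tested genes were called, 1 of 5 with HA (4.11%), 1 of 5 with Qiagen (5.33%), 2 of 5 with Nature (8.56%) and 2 of 5 with Life (8.29%). The member called with FLAG, HA and Qiagen was Ccnd1, the target itself, which was also 1 of the 2 with Nature and with Life. With the tag siRNAs averaged, 1 of 5 was called, again Ccnd1, and 3.86% of all genes. With the 3 cyclin D1 siRNAs averaged, 2 of 5 were called and 5.4% of all genes. The second member was Ccnd3, at −0.77 (SE 0.16, adjusted p = 0.0106, edgeR). That average mixes the −1.90 of Life with the 0.30 of Nature, and the call ended without SCR clone 12 (−0.90, adjusted p = 0.0830), without SCR clone 14 (−0.63, 0.107), without the clone term (0.272) and with the compared libraries alone (0.115). Over all 28 comparisons made, which reuse the same libraries, 46 of 140 member tests were called. Apart from Ccnd1, 28 of 112 were called. The share of all genes called ran from 0 to 62.6% by comparison.

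The same siRNAs were compared with each other, which uses no SCR library. Against the mean of the other 4 targeting siRNAs, Nature siRNA had lower Ccnd1 (log2 difference −1.52, SE 0.20) and lower Ccnd2 (−2.24, SE 0.25) and higher Ccnd3 (0.89, SE 0.16), so that 3 of 5 members were called and 9.93% of all genes. Life siRNA had lower Ccnd1 (−1.33) and Ccnd3 (−1.85) and higher Ccnd2 (1.13, adjusted p = 0.000839), again 3 of 5 members, against 14.2% of genes. The mean that each siRNA is set against holds the other 4, so the low Ccnd3 of Life is part of the mean for Nature, and in clone 14 Ccnd3 with Nature (115 CPM) lay below FLAG (121) and HA (143). Qiagen siRNA had higher Ccnd1 (1.63) and Ccnd2 (0.72, adjusted p = 0.0229), 2 of 5 members against 13.7% of genes. HA siRNA had higher Ccnd1 (0.92), Ccnd3 (0.79) and Cdk4 (0.37, adjusted p = 0.0452), 3 of 5 against 4.86%, and FLAG siRNA 0 of 5 against 1.32%. All adjusted p-values here are edgeR's. Calls that rested on 1 library were Ccnd3 with Nature (adjusted p = 0.218 without Nature clone 12), Ccnd2 with Life (0.113 without Life clone 12) and Ccnd2 with Qiagen (0.447 without Qiagen clone 12, 0.0504 without HA clone 14). Ccnd1 and Ccnd3 with HA lost their call without HA clone 12 (0.0791 and 0.0606) or HA clone 14 (0.136 and 0.301), and Cdk4 with HA lost it in 8 of 10 such fits, with adjusted p-values up to 0.373. The 3 HA calls were also lost without the 4 libraries over 2% Rn45s (0.253 for Ccnd1, 0.159 for Ccnd3 and 0.468 for Cdk4), one of which is HA clone 12. Without the clone term the 3 Ccnd2 calls, the Ccnd3 call with Nature and all 3 HA calls were lost.

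Averaged by kind, the tag siRNAs left more Ccnd1 and more Ccnd3 than the cyclin D1 siRNAs, but single siRNAs did not all follow the average. Qiagen left the most Ccnd1 of the 5 (27.0% of SCR), and Ccnd3 stood at 123% of SCR with Nature, 60.8% with Qiagen and 26.9% with Life, against 102% with FLAG and 117% with HA. The log2 difference of tag over cyclin D1 siRNA was 0.82 for Ccnd1 (SE 0.15, adjusted p = 0.00171) and 0.90 for Ccnd3 (SE 0.13, adjusted p = 0.000327, both edgeR), 2 of 5 members, where 6.99% of genes were called. Without the 4 libraries over 2% Rn45s the Ccnd1 difference was 0.58 and did not pass (adjusted p = 0.136, edgeR). Cdk4 was 0.28 higher (adjusted p = 0.0539) and passed without Qiagen clone 14 (0.34, 0.0183) or Nature clone 12 (0.34, 0.0189).

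**Figure D2:**
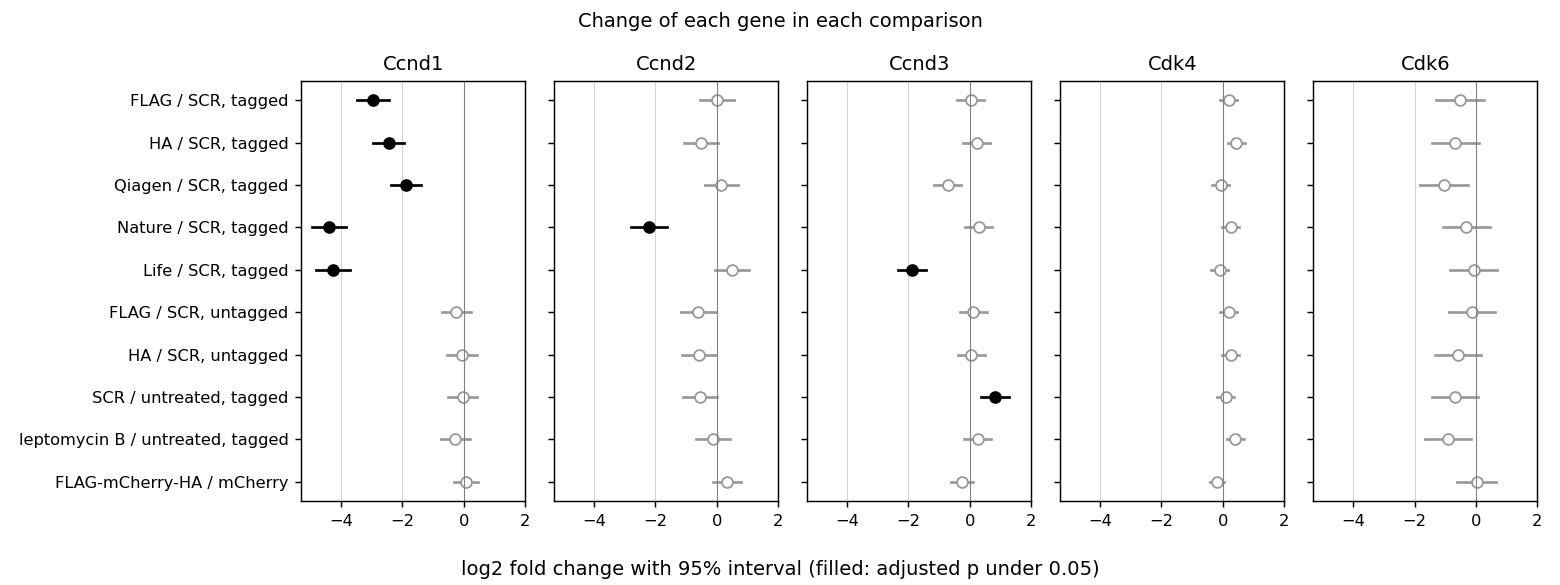
Log2 fold change of each gene with its 95% interval from the edgeR fit, for each siRNA and the other comparisons. Filled points passed at an adjusted p under 0.05. Ccnd1 lies between −4.40 and −1.89 with the 5 siRNAs in tagged clones, Ccnd2 lies at −2.21 with Nature, and Ccnd3 lies at −1.90 with Life.

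The share of each D cyclin in the sum of the 3, per kilobase, changed with the siRNA. With SCR in clones 14 and 12, Ccnd1 made up 77.5 and 87.4%, Ccnd2 18.4 and 9.06% and Ccnd3 4.11 and 3.58%. With Life siRNA the largest share was that of Ccnd2, at 83.3 and 68.8%, and Ccnd1 made up 12.5 and 26.5%. With Nature siRNA the 3 were closer together, with Ccnd1 at 27.2 and 39.6%, Ccnd2 at 39.4 and 14.2% and Ccnd3 at 33.4 and 46.2%. With FLAG siRNA Ccnd1 made up 25.8 and 52.1% and Ccnd2 61.4 and 33.2%, although the Ccnd2 level itself hardly differed from SCR (log2 differences 0.03 and −0.02). With HA siRNA Ccnd1 made up 44.4 and 60.9%, and with Qiagen 47.7 and 66.3%. Ccnd1 held the largest share in 23 of 28 libraries, Ccnd2 in 4 (Life in both clones, FLAG and Nature in clone 14) and Ccnd3 in 1 (Nature clone 12). These shares depend on the length used. The union of all annotated Ccnd3 exons has 8775 bases, but its longest coding transcript with a CCDS entry, a length chosen after the values were seen, has 2113, and with that length Ccnd3 held 59.96 and 73.0% with Nature siRNA.

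The summed D cyclin level stood higher, relative to SCR, than Ccnd1 alone. As a percentage of SCR in the same clone, the sum stood in clones 14 and 12 at 11.1 and 12.5% with Nature siRNA, 25.3 and 21.5% with Life, 30.6 and 26.9% with FLAG, 29.7 and 28.3% with HA, and 40.8 and 38.4% with Qiagen. With the shorter coding transcripts the sum stood at 18.1 and 23.7% with Nature and 28.0 and 24.2% with Life. With 2 libraries per group these sums were not tested. Nature left the lowest sum with all lengths tried, and both Ccnd1 and Ccnd2 were low with it.

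**Figure D3:**
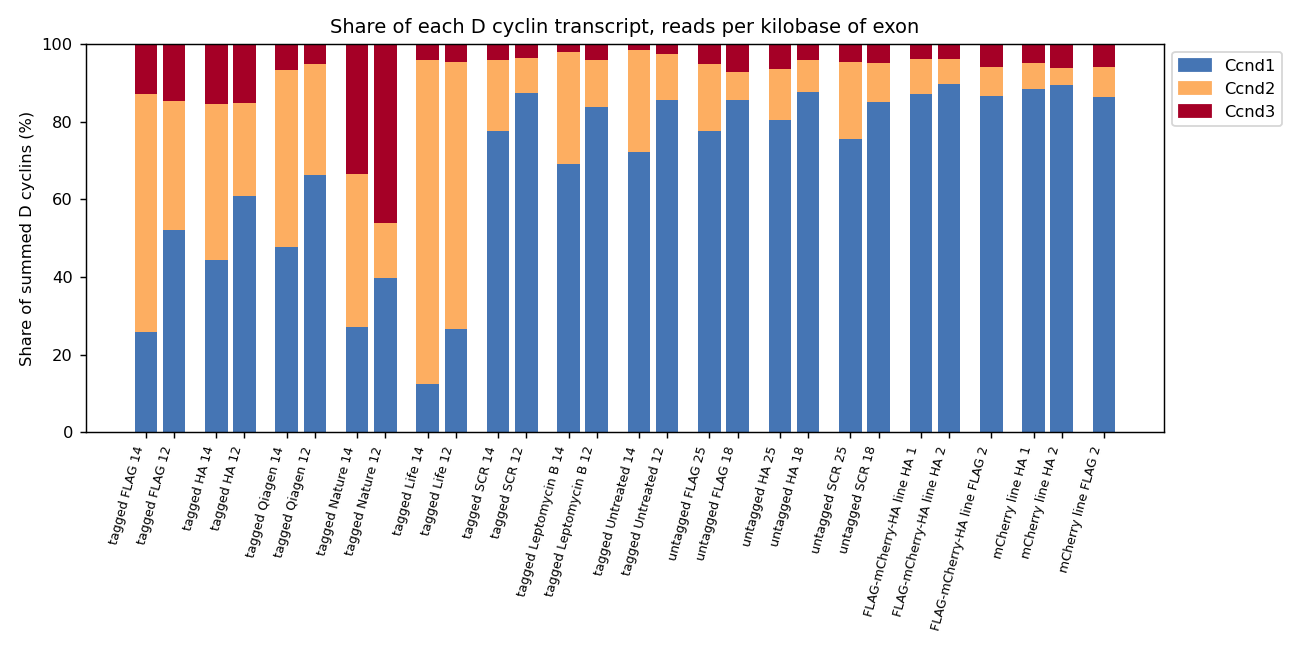
Share of Ccnd1, Ccnd2 and Ccnd3 in their sum (percent, CPM per kilobase of union exon length) in each of the 28 libraries, as stacked bars by treatment. Ccnd1 makes up 12.5 to 66.3% of each bar with a targeting siRNA in tagged clones, and 69.1 to 89.8% in the other bars.

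In untagged clones, whose cyclin D1 lacks the FLAG and HA tags, none of the 5 genes passed the test with the tag siRNAs. Ccnd1 had 1226 and 1014 CPM with FLAG siRNA in clones 25 and 18, and 1256 and 1293 with HA, against 1313 and 1329 CPM with SCR. The averaged log2 fold change was −0.15 (95% interval −0.56 to 0.26, adjusted p = 0.873, edgeR). The interaction term, the response of tagged minus that of untagged clones, was −2.55 for Ccnd1 (SE 0.28, adjusted p = 0.000804, edgeR). Ccnd1 was the only one of all tested genes called there, which is 0.00662% of them. Without the untagged SCR library of clone 25 the difference was −2.49 and did not pass (adjusted p = 0.0664, edgeR). The other 4 members had differences between −0.24 and 0.32, none called. The members called in untagged clones were 0 of 5 with FLAG siRNA (2.02% of all genes), 0 of 5 with HA (2.16%) and 0 of 5 with both averaged (2.68%). Ccnd2 was lower in all 4 of these libraries than in SCR of the same clone. It had 541 and 169.8 CPM with FLAG and 405 and 239 with HA in clones 25 and 18, against 688 and 314 with SCR, but its log2 fold change of −0.58 did not pass (95% interval −1.05 to −0.11, adjusted p = 0.260, edgeR).

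The 2 lines of clone 18 gave 0 of 5 members called and 0% of all genes, and 1390 genes had an unadjusted p under 0.05 (DESeq2 called 15 genes, none of them a member). Ccnd1 had 1326, 1363 and 1078 CPM in FLAG-mCherry-HA libraries (first and second HA, then FLAG), against 1318, 1181 and 1099.6 CPM in mCherry libraries. Ccnd2 had 276, 189.9 and 181 CPM, against 201, 119 and 198, a log2 difference of 0.33 (95% interval −0.12 to 0.79). Ccnd3 stood at 106 to 140 CPM against 136 to 152, Cdk4 at 342 to 378 against 387 to 422, and Cdk6 at 8.53 to 14.8 against 8.72 to 13.6. No SCR library of these lines was among those analysed, so a response to siRNA could not be computed in them.

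Leptomycin B left all 5 members short of the threshold, while 9.99% of genes were called. Ccnd1 had 1286 and 760.2 CPM with leptomycin B in clones 14 and 12, against 1469 and 1003 CPM untreated, a log2 fold change of −0.27 (95% interval −0.75 to 0.20). Ccnd2 had 1071 and 223 CPM, against 1059 and 277, and Ccnd3 73.9 and 68.3 CPM, against 61.1 and 57.2. Cdk4 had 521 and 702 CPM, against 361 and 576, a log2 fold change of 0.40 (95% interval 0.13 to 0.68, adjusted p = 0.0611, edgeR). Cdk6 had 12.3 and 7.22 CPM, against 20.5 and 16.8, a log2 fold change of −0.92 (95% interval −1.67 to −0.16, adjusted p = 0.115, edgeR). Cdk4 passed with DESeq2, with a stricter filter and with the compared libraries alone. Ccnd1, Ccnd3 and Cdk6 also passed with the compared libraries alone, where more of all genes were called. Within a clone there is 1 library of each, and in both clones Cdk4 and Ccnd3 were higher and Cdk6 and Ccnd1 lower with leptomycin B than untreated.

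Ccnd3 rose with the SCR control relative to untreated cells. With SCR siRNA Ccnd3 had 127 and 86.0 CPM in clones 14 and 12, against 61.1 and 57.2 CPM untreated. The log2 fold change was 0.82 (SE 0.21, adjusted p = 0.0313, edgeR), 1 of 5 members called, against 5.29% of genes. The call did not survive leaving out any 1 of the 4 libraries. Without SCR clone 12 the adjusted p was 0.0816, without SCR clone 14 0.156, without untreated clone 12 0.0734, without untreated clone 14 0.277, and without the clone term 0.783. Ccnd2 had 611 and 234 CPM with SCR against 1059 and 277 untreated, and Cdk6 8.89 and 14.7 against 20.5 and 16.8. Neither passed (−0.54, adjusted p = 0.218, and −0.67, adjusted p = 0.253, edgeR). SCR and untreated cells also differ in transfection, and the notes of untreated and leptomycin B samples of clone 12 carry a date that the SCR samples' notes lack, so transfection, siRNA and day cannot be told apart.

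Against untreated cells as the second control, more members passed, beside more genes overall. FLAG siRNA gave 3 of 5 members (13.9% of genes), HA 5 of 5 (32.9%), Qiagen 2 of 5 (7.37%), Nature 5 of 5 (33.6%) and Life 2 of 5 (15.7%). Ccnd1 fell with each (log2 fold changes of −4.43 to −1.92). Ccnd2 fell with Nature (−2.75) and with HA (−1.06, adjusted p = 0.00716). Ccnd3 rose with FLAG (0.85, adjusted p = 0.0157), HA (1.04, 0.00255) and Nature (1.12, 0.00124) and fell with Life (−1.07, 0.00278). Cdk4 rose with HA (0.53, 0.00705) and Nature (0.35, 0.0491). Cdk6 fell with FLAG (−1.19, 0.0396), HA (−1.33, 0.0113), Qiagen (−1.71, 0.00923) and Nature (−0.99, 0.0441), all by edgeR. SCR also had higher Ccnd3 (called) and lower Cdk6 (not called) than untreated cells, and transfection and siRNA cannot be told apart in comparisons with untreated cells. Untreated clone 14, which had the higher Cdk6 and the lower Cdk4 of the 2 untreated libraries, decided many of them.

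Without untreated clone 14 the calls of Ccnd3 with FLAG (adjusted p = 0.184) and HA (0.0557), Ccnd2 with HA (0.113), Cdk4 with HA (0.116) and Nature (0.350), and Cdk6 with FLAG (0.280), HA (0.119), Qiagen (0.0930) and Nature (0.265) were lost. Without untreated clone 12 those of Cdk4 with Nature (0.0533) and Cdk6 with FLAG (0.0613) and Nature (0.0554) were lost. Leaving out a treated library ended the calls of Ccnd3 with FLAG (0.0809 without FLAG clone 12, 0.128 without clone 14), Cdk6 with FLAG (0.185 and 0.202) and Cdk6 with HA (0.0753 without HA clone 12, 0.0721 without clone 14). It also ended those of Ccnd2 with HA (0.104 without HA clone 14), Cdk6 with Qiagen (0.141 without Qiagen clone 14), and Ccnd3, Cdk4 and Cdk6 with Nature (0.0578, 0.464 and 0.348 without Nature clone 12). The Ccnd1 calls, Ccnd2 with Nature and Ccnd3 with Life were kept in all of these fits, and without the clone term only those of Ccnd1 were kept. Without the filter on low counts Cdk6 with FLAG (0.0588) and Nature (0.0668) and Cdk4 with Nature (0.0594) were lost, and without the libraries over 2% Rn45s Cdk4 (0.0539) and Cdk6 (0.0501) with HA.

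The clones differed most in Ccnd2. Clone 14 had 1.83 to 4.79 times the Ccnd2 CPM of clone 12 with the same treatment (median 2.66), higher in 8 of 8 treatments, and the ratio was lowest with Life and highest with leptomycin B. The log2 difference of clone 14 over 12 was 1.48 (SE 0.14, adjusted p = 2.19e-08, edgeR). Clone 25 had 1.70 to 3.18 times the Ccnd2 of clone 18, higher in 3 of 3 treatments (1.19, SE 0.22, adjusted p = 0.000246, edgeR). Ccnd2 thus differed within the tagged pair and within the untagged pair, and tagged and untagged ranges overlapped. Ccnd2 had a median of 620.3 CPM in clone 14 and 232 in clone 12, and of 541 in clone 25 and 239 in clone 18.

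Cdk4 was lower in clone 14 than in clone 12 in 8 of 8 treatments, at 0.587 to 0.887 times its level (log2 difference −0.48, SE 0.07, adjusted p = 4.53e-06, edgeR). Ccnd3 was higher in 7 of 8, with Nature as the exception (0.32, SE 0.11, adjusted p = 0.0132). Averaged over treatments, Ccnd1 and Cdk6 did not differ by clone beyond the spread (0.02 and −0.09), but the direction varied with the treatment. Clone 14 had 0.712 to 1.69 times the Ccnd1 of clone 12, higher in 3 of 8 treatments (untreated, leptomycin B and SCR). It had 0.538 to 1.70 times the Cdk6, higher in 5 of 8. Clones differ in most genes: 3 of 5 members were called between clones 14 and 12 and 62.6% of all genes, and 1 of 5 members between clones 25 and 18 and 47.6% of genes. Cdk6 was higher in clone 25 in 3 of 3 treatments without passing (0.64, adjusted p = 0.0864), and passed without the untagged HA library of clone 18 (0.89, 0.0479) or of clone 25 (0.89, 0.0476). The share of Ccnd2 among the D cyclins averaged 42.9% in clone 14 and 25.2% in clone 12 over the 8 treatments, and that of Ccnd1 47.1 and 62.8%. Both differences held in 8 of 8 treatments (exact sign-flip permutation test, two-sided, p = 0.0078, the smallest that 8 pairs allow, and 0.0312 adjusted over 8 tests). The 2 shares are parts of 1 sum, so these are not separate results. The 8 pairs are treatments of the same 2 clones. Between clones 25 and 18 the Ccnd2 share differed by 8.22 percentage points in 3 of 3 treatments, where the smallest p the exact permutation test allows is 0.25.

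**Figure D4:**
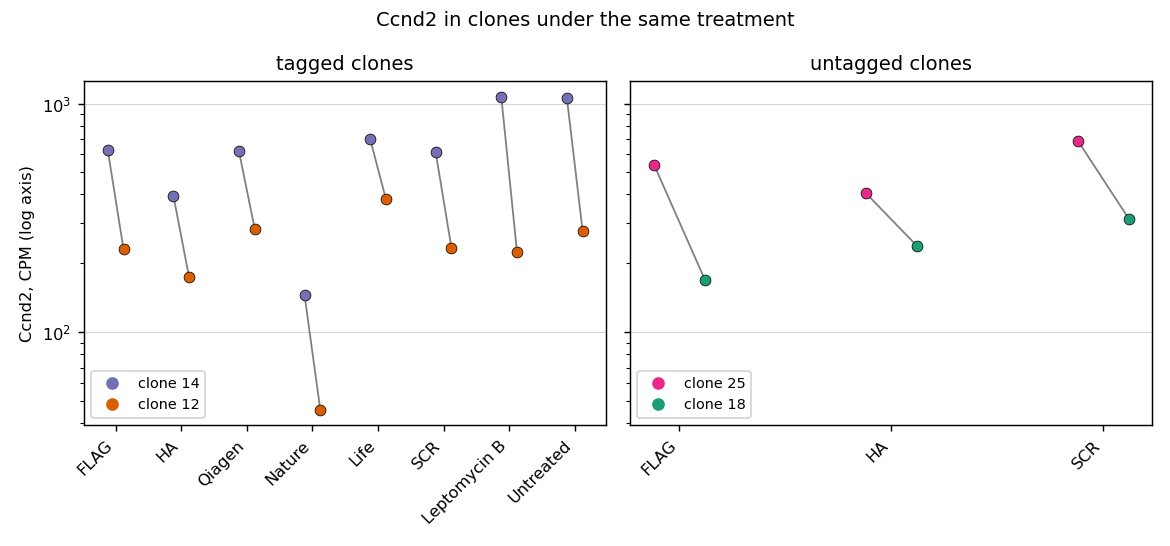
Ccnd2 CPM (log axis) in each treatment, with lines joining the 2 clones of a kind, clone 14 left of clone 12 and clone 25 left of clone 18. Every line is higher at clone 14 or 25, and the Nature line lies lowest, at 145 and 45.7 CPM.

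Markers of cell type also differed between these clones. The 5 epithelial markers summed to 2158 to 3696 CPM in clone 14 and 122 to 283 in clone 12, carried by the keratins Krt18 and Krt19, while in the untagged pair they were lower in clone 25 (583 to 847 CPM) than in clone 18 (1483 to 2041). Cdh1, the gene of E-cadherin, had 21.7 to 40.03 CPM in clone 14 and 0.227 to 1.16 in clone 12, and 1.65 to 1.74 in clone 25 and 3.63 to 4.09 in clone 18. Krt8 had 2.61 to 10.9 CPM in clone 14 and 0 to 0.688 in clone 12, and 0.342 to 0.565 in clone 25 and 3.72 to 8.19 in clone 18. Epcam, another epithelial surface marker, had a median of 0.14 CPM over all libraries. The 10 fibroblast markers summed to 4814 to 8425 CPM in clone 14 and 9269.9 to 11717 in clone 12, and to 7657 to 8829.8 in clone 25 and 10641 to 10940.4 in clone 18. The collagen gene Col1a1 had 0.292 to 0.967 CPM in clone 14 and 343 to 710 in clone 12, and Thy1 0 to 0.0494 and 9.37 to 33.1. Col1a2 had 0.201 to 2.24 CPM in clone 14 and 1771 to 2505 in clone 12. Dcn, Pdgfra and Pdgfrb were also lower in clone 14 than in clone 12, and Lum was below 1 CPM in both. Fn1 and Col3a1 ran lower in clone 14 but stayed well detected. Fn1 had 191 to 757 CPM (1305 to 2652 in clone 12), and Col3a1 93.1 to 241 (238 to 496). Vim ran between 4203 and 7919 CPM in clone 14 and between 4008 and 6139 in clone 12. It made up most of the fibroblast sum of clone 14. Ccnd2 was higher in both clone 14 and clone 25, in which the epithelial sums differ in opposite directions from their partners. The fibroblast sums are lower in both, but single fibroblast markers of clone 25 went both ways. Vim was lower (2768 to 3775 CPM, against 7272 to 7709 in clone 18), as were Col3a1, Pdgfra, Dcn and Lum. Col1a1 was higher (282 to 348 CPM, against 195 to 271), as were Col1a2, Fn1, Thy1 and Pdgfrb. The part of these markers in the clone differences was not tested. Tagged against untagged clones with SCR siRNA gave 0 of 5 members called and 0% of all genes (442 at an unadjusted p under 0.05, and 177 called by DESeq2), with log2 differences between −0.52 and 0.43 and clones as the replicates.

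The lists of pathway genes are read against the share of all genes called, which was 3.86% with the tag siRNAs in tagged clones, 5.4% with the cyclin D1 siRNAs, 2.68% with tag siRNA in untagged clones and 9.99% with leptomycin B. No test of a list as a whole was made. Of 7 CDK inhibitor genes 0 rose and 1 fell with the tag siRNAs in tagged clones, 0 and 2 with the cyclin D1 siRNAs, 0 and 1 with tag siRNA in untagged clones, and 1 and 0 with leptomycin B, which is 14.3, 28.6, 14.3 and 14.3% of the list. Their median log2 changes were −0.02, −0.30, 0.18 and 0.41, against medians over all genes of 0.03, 0.02, −0.01 and 0.03. The siRNA changes are relative to SCR, in which 1 of the 7 rose and 0 fell against untreated cells (median 0.26, 5.29% of all genes called). Against untreated cells 1 of 7 was called with FLAG siRNA (13.9% of all genes) and 2 with HA (32.9%). It was 0 with Qiagen (7.37%), 2 with Nature (33.6%) and 0 with Life (15.7%). Cdkn1a, the gene of p21, which binds cyclin D complexes, fell by 1.53 with the tag siRNAs (SE 0.12, adjusted p = 2e-06), by 0.86 with the cyclin D1 siRNAs (0.000218) and by 1.54 with tag siRNA in untagged clones (2.91e-06, edgeR), where Ccnd1 was not called. All 3 Cdkn1a calls were kept whichever library was left out. Against untreated cells Cdkn1a was not called with Qiagen or Life siRNA, since 0 of the 7 genes were. Cdkn2d, an inhibitor of CDK4 and CDK6, fell by 1.12 with the cyclin D1 siRNAs (0.0212), a call lost without SCR clone 12 (0.274), SCR clone 14 (0.0754) or Life clone 12 (0.0562). Cdkn1b, the gene of p27, rose by 0.77 with leptomycin B (0.00591) and was lost without untreated clone 12 (0.0623) or clone 14 (0.0536).

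Of 16 genes for the retinoblastoma family, E2F factors and later G1/S cyclins and their regulators, 0 rose and 4 fell with the tag siRNAs, 0 and 3 with the cyclin D1 siRNAs, 0 and 2 with tag siRNA in untagged clones, and 1 and 6 with leptomycin B, or 25.0, 18.8, 12.5 and 43.8% of the list (medians −0.22, −0.28, −0.16 and −0.27). With the tag siRNAs Rb1, the main substrate of the D cyclin kinases, fell by 0.74 (adjusted p = 0.0022), Rbl1 by 0.53 (0.0237) and E2f4, a repressive E2F, by 0.50 (0.020). In untagged clones Rb1 fell by 0.60 (0.0151) and E2f4 by 0.54 (0.0137). With the cyclin D1 siRNAs the cyclin E gene Ccne1 fell by 1.00 (4.11e-05), the cyclin A gene Ccna2 by 0.56 (0.0192) and Rbl1 by 0.48 (0.0251). With leptomycin B the repressor E2f8 fell by 1.18 (0.000267), Ccne1 by 0.82 (0.00177) and the phosphatase gene Cdc25a by 0.67 (0.00196). All are edgeR's adjusted p-values. The siRNA changes are relative to SCR, in which 2 of the 16 rose and 1 fell against untreated cells (median 0.23, 5.29% of all genes called). Calls kept whichever library was left out were Rb1 with the tag siRNAs in tagged clones, Ccne1 in both comparisons and E2f8. Cdc25a was lost without untreated clone 12 (0.0557). With the compared libraries alone Ccna2 (0.0939) and Rbl1 (0.189) with cyclin D1 siRNA, and Rb1 (0.189) and E2f4 (0.183) in untagged clones, were lost, and Rbl1 with tag siRNA was lost without the 4 libraries over 2% Rn45s (0.0790). Without SCR clone 12 E2f4 (0.247) and Rbl1 (0.559) with tag siRNA, and Ccna2 (0.235) and Rbl1 (0.609) with cyclin D1 siRNA, were lost. With cyclin D1 siRNA Rbl1 was also lost without Nature clone 12 (0.0596) and Ccna2 without SCR clone 14 (0.0907). With tag siRNA E2f4 was also lost without SCR clone 14, either FLAG library or HA clone 14 (0.0546 to 0.0946), and Rbl1 without any of the FLAG or HA libraries (0.0649 to 0.0841). In untagged clones Rb1 (0.531) and E2f4 (0.929) were lost without SCR clone 18, Rb1 without SCR clone 25 (0.197), and both without either FLAG library or HA clone 18 (0.0520 to 0.0692 for Rb1 and 0.0530 to 0.0697 for E2f4).

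Of 14 genes for assembly and turnover of D cyclins 0 rose and 1 fell with the tag siRNAs, 0 and 1 with the cyclin D1 siRNAs, 0 and 0 in untagged clones, and 1 and 1 with leptomycin B, or 7.14, 7.14, 0 and 14.3% of the list, shares close to those of all genes (medians −0.01, −0.06, −0.07 and 0.09). Skp2, a subunit of a ubiquitin ligase, fell by 0.47 with the tag siRNAs (adjusted p = 0.0187, lost without SCR clone 12 at 0.606, at 0.0525 to 0.0775 without either FLAG library or HA clone 14, and at 0.0570 without the libraries over 2% Rn45s). Fbxw8, another F-box gene, fell by 0.31 with the cyclin D1 siRNAs (0.0229, lost without SCR clone 12 at 0.279, SCR clone 14 at 0.0937, Nature clone 12 at 0.0546 or Life clone 12 at 0.0559, and at 0.253 with the compared libraries alone). Ccndbp1, the gene of a cyclin D1 binding protein, rose by 0.74 with leptomycin B (0.00414, lost without untreated clone 12 at 0.0528 or leptomycin B clone 12 at 0.0925). Ambra1, which targets D cyclins for degradation, fell by 0.51 (0.0220, lost without any 1 of the 4 libraries, at 0.0741 to 0.128). All are edgeR values.

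Of 15 factors known to act on the Ccnd1 promoter 0 were called with the tag siRNAs or the cyclin D1 siRNAs in tagged clones, 1 rose and 0 fell in untagged clones, and 2 rose and 4 fell with leptomycin B, or 0, 0, 6.67 and 40.0% of the list (medians 0.00, −0.08, 0.00 and −0.06). Junb, of the AP-1 family, rose by 1.07 in untagged clones (adjusted p = 0.00413, lost without SCR clone 18 at 0.251 or clone 25 at 0.120). With leptomycin B Fos rose by 2.15 (0.000345) and Stat3 by 1.08 (0.000588), and Egr1 fell by 1.19 (0.00106), each kept whichever library was left out, while Ccnd1 was not called. These are edgeR values, and apart from Ccne1 with the cyclin D1 siRNAs all pathway calls named here were lost without the clone term.

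The genes whose levels moved most like each member were found by Pearson's correlation of log2 CPM over the 28 libraries, after the mean of each clone, or of each matched pair of mCherry libraries, was subtracted, among 11771 genes. These are descriptions of libraries that share clones, controls and treatments. Nearest to Ccnd1 were Qser1 (r = 0.87), Sfxn2 (0.87) and Smpd4 (0.86). Nearest to Ccnd2 were Rab8b (0.97), Nedd4 (0.97) and Clic4 (0.96), and nearest to Ccnd3 were Fbxw5 (0.95), Uqcrc1 (0.95) and Cyc1 (0.94). Nearest to Cdk4 were Hspbp1 (0.95), Cnpy2 (0.94) and Mrpl2 (0.93), and nearest to Cdk6 were Rttn and Kmt2d (0.81 each). No member was among the nearest genes of another.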

How the data were processed

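RNA was prepared with Trizol from 28 samples, and stranded poly(A) libraries were sequenced as single reads of 100 bases, per the labels' protocols. The authors deposited 1 table of raw read counts per gene for all samples, and the submitters' processing notes name build mm10 and the tools HTSeq 0.6.1p1, TopHat2 2.0.13, Bowtie2 2.2.3, CASAVA 1.8.2 and FastQC. Neither the annotation nor whether counting used strand is stated, so reads of overlapping genes may be counted with a member. What the n of 3 or 4 in the titles means is not stated, and each library was used as 1 sample. The 22 rows that lack a gene ID were filtered like any other row. Among 378 pairs of libraries the most similar had a chi-square of 14.5 times its degrees of freedom, so none was a duplicate within sampling noise.

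Counts were tested with edgeR 4.0.16 in R 4.3.3 (filterByExpr by group, TMM, robust quasi-likelihood dispersions, 28 libraries in 15 groups fitted together, 17 coefficients and 11 residual degrees of freedom, Benjamini-Hochberg over 15099 genes, threshold 0.05). The clone, or the matched pair of mCherry libraries, was a block, because both arms of a comparison hold the same clones. After group means were subtracted, libraries of a clone deviated together (lowest correlation 0.904 for clones 12 and 14 and 0.900 for clones 18 and 25). Each such group holds 1 library per clone, so the 2 clones of a pair mirror each other and share 1 value. Standard errors come from the log2 fold change over the root of its F statistic. Tagged and untagged SCR libraries were compared in a fit of those 4 alone. The biological coefficient of variation was 14.6%. CPM used TMM factors, and log2 CPM a prior count of 2. Shares used union exon lengths, and transcripts and sequences came from GENCODE M21. Shares were compared between clones by exact sign-flip permutation (SciPy 1.17.1). The fit was tested on simulated data with known fold changes.

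Each result was recomputed with DESeq2 1.42.0, with size factors by relative log expression, with dispersions not made robust, with no filter, with a filter at a mean of 1 CPM, with no replicate block, with the compared libraries alone, without libraries over 2% Rn45s or without the Ccnd1 row, without each library in turn, and with other gene lengths. All 5 members are described, and of each pathway list the up to 3 called genes with the smallest p in 4 comparisons are named, and some results are not reported here. The members and lists were chosen with earlier results of these data known.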

Additional observations from a re-analysis of the deposited data

Results flagged for a closer look

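The response of Ccnd1 to tag siRNA differed between tagged and untagged clones by −2.55 on the log2 scale, by an interaction term (SE 0.28, adjusted p = 0.000804, edgeR). The averaged change was −2.70 in tagged clones (lower in 4 of 4 libraries with tag siRNA than in SCR of the same clone) and −0.15 in untagged clones (lower in 4 of 4). The fits that left out 1 library each gave −2.70 to −2.42.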

How the results depend on the processing

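Of 46 member calls, DESeq2, non-robust dispersion and the stricter filter kept 46, relative log expression size factors 45, the compared libraries alone 44, no filter 43, the fit without libraries over 2% Rn45s 40, and the fit without the Ccnd1 row 28 of 28. No called value changed sign. Without the replicate block 20 of 42 were kept, and the 22 lost were 12 of siRNA against untreated cells, 7 between targeting siRNAs, and Ccnd2 with Nature (−2.15), Ccnd3 with the averaged cyclin D1 siRNAs (−0.79) and Ccnd3 with SCR against untreated (0.85). With the compared libraries alone Ccnd3 with cyclin D1 siRNA (−0.79) and Cdk4 with HA against the other siRNAs (0.36) were lost, and calls were gained for Ccnd2, Cdk4 and Cdk6 with HA (−0.56, 0.41 and −0.65), Ccnd3 and Cdk6 with Qiagen (−0.76 and −1.09), Ccnd2 with Life (0.45), Ccnd2, Cdk4 and Cdk6 with tag siRNA (−0.27, 0.30 and −0.59), Ccnd2 with FLAG and HA in untagged clones (−0.61 and −0.58), Ccnd1, Ccnd3, Cdk4 and Cdk6 with leptomycin B (−0.29, 0.27, 0.41 and −0.96), Cdk6 in clone 25 (0.63), and, against untreated cells, Ccnd2 with FLAG (−0.49) and Cdk6 with Life (−0.75). These small fits leave few residual degrees of freedom. In them the count of all genes called rose with the averaged tag siRNAs and with leptomycin B. It fell with the averaged cyclin D1 siRNAs and with tag siRNA in untagged clones. For single siRNAs that count is not reported here. DESeq2 added Cdk4 with HA (0.42), with tag against cyclin D1 siRNA (0.28) and with leptomycin B (0.41), Ccnd3 with Qiagen (−0.73), and, against the other siRNAs, Ccnd3 with FLAG (0.57) and Cdk4 with Qiagen (−0.28). The stricter filter added Ccnd3 with Qiagen (−0.73), Cdk4 with tag against cyclin D1 siRNA (0.27) and Cdk4 with leptomycin B (0.42). Cdk4 with tag against cyclin D1 siRNA was also added by relative log expression factors (0.28), which ended Cdk4 with HA against the other siRNAs (0.35), and by no filter (0.30). Without libraries over 2% Rn45s Ccnd1 with tag against cyclin D1 siRNA was lost (0.58) and Cdk6 in clone 25 was gained (0.69). Why these calls moved was not tested.

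With 1 library left out, values ran between −1.04 and −0.45 for Ccnd3 with Qiagen, −0.90 and −0.63 for Ccnd3 with cyclin D1 siRNA, 0.22 and 0.34 for Cdk4 with tag against cyclin D1 siRNA, −2.70 and −2.42 for the Ccnd1 interaction, 0.68 and 0.96 for Ccnd3 with SCR against untreated, and 0.46 and 0.89 for Cdk6 in clone 25. Over all such fits 272 of 318 calls were kept, 46 were lost and 12 gained. In tagged SCR libraries the mean Ccnd1 share was 74.1% with CCDS transcripts (a length chosen after seeing the data) and 70.7% with counts not divided by length, that of Ccnd2 23.2% with such counts, and that of Ccnd3 6.57% with the longest transcript, 11.4% with CCDS transcripts and 6.11% with counts. The Cdk6 share was 0.419% with either transcript length and 2.31% with counts.

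Counts over all genes moved more. Without the block 40 genes were called with cyclin D1 siRNA in place of 815, 32 in place of 583 with tag siRNA, 21 in place of 404 in untagged clones, 48 in place of 1508 with leptomycin B and 12 in place of 799 with SCR against untreated. The compared libraries alone gave 65, 3283, 80 and 4494 for the leading 4, and DESeq2 gave 1280, 982 and 694 for the leading 3. Without SCR clone 12, 97 genes were called with cyclin D1 siRNA. The fit without a block was not run for the clone contrasts or tagged against untagged SCR, nor the Rn45s fit for the last. Depth limits Cdk6 most, at 109 to 1229 counts.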
